A study of Mus musculus with 4 samples.

Results

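The genes described here are 35 genes of DNA repair, from homologous recombination, the Fanconi pathway, mismatch repair, damage signalling and base excision, and they were chosen by name. A probe set, which reads 1 transcript or part of it, was counted for a gene only if the platform annotation gave that gene symbol and no other. By this rule 34 of the 35 genes had 75 probe sets, out of 34945 probe sets with 1 symbol for 18193 genes in the whole table, and Xrcc2 was not analysed here. Of the 34 genes, 32 passed the filter on low values with 61 probe sets, and Bard1 and Rad54b did not. Messenger RNA was read on 4 single-colour Affymetrix mouse genome arrays. The cells of both groups were cultured from lungs of ICR mice aged 4 to 6 weeks after a sort for Sca-1+, CD34+, CD31- and CD45- cells, and the labels call them bronchoalveolar stem cells (BASCs). They were first plated on irradiated mouse embryonic fibroblasts; the sources differ on whether later passages stayed on these or were moved to collagen, so whether fibroblasts were present when RNA was taken is not settled. The 2 Myc-depleted arrays were of BASCs infected with lentivirus carrying short hairpin RNA against c-Myc and kept in puromycin as stable lines, and the 2 control arrays were of BASCs labelled control, which the paper calls wild type. No source used here says whether those control cells had received a control virus or puromycin, so infection and selection cannot be told apart from depletion. Nor is it stated which hairpin was used or whether 2 arrays of 1 group had separate cultures as their source. The p-values therefore measure only array-to-array spread within a group, and that spread may be technical.

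The repair genes divide the work by the kind of lesion. Homologous recombination copies a broken strand from the sister chromatid, and Brca1, Brca2 and Palb2 act together in it. The Fanconi core complex (Fanca, Fancb, Fancc, Fance, Fancg, Fancl and Fancm among its subunits) attaches ubiquitin to the paired proteins Fancd2 and Fanci at DNA crosslinks. Mismatch repair removes copying errors, and the kinases Atm and Atr report breaks and stalled forks to the cell cycle machinery. Many of these genes are transcribed most in cells that are copying their DNA.

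Array quality and cell identity bear on the values that follow. Myc itself read 8.35 and 8.50 on the Myc-depleted arrays, against 9.21 and 9.69 on the control arrays, which left 49.2% of the control level (limma adjusted p = 0.36). Poly-A RNA spiked into the samples had a 3′ minus 5′ difference of 3.64 on Myc-depleted 1 and 1.78 on Myc-depleted 2, against 1.89 on control 1 and 3.12 on control 2, so that the arrays with a high difference were Myc-depleted 1 and control 2. Of 8 lung epithelial markers, 6 lay under the low-value threshold, including Sftpc and Scgb1a1, by which BASCs are defined, and Cd34 did too (3.66 and 3.76 on the Myc-depleted arrays, 3.85 and 3.97 on the control arrays). Epcam and Aqp5 lay above the threshold. Epcam read 7.80 and 7.52 on the Myc-depleted arrays, against 6.89 and 7.12 on the control arrays (difference 0.65, limma adjusted p = 0.40). Aqp5 differed by -0.11. Of 9 mesenchymal markers, 8 lay above the threshold, with Col1a2 at 14.55 and 14.27 on the Myc-depleted arrays and at 14.41 and 14.56 on the control arrays. Some of these mesenchymal markers differed between the groups without overlap. Pdgfra read 11.7 and 11.4 on the Myc-depleted arrays, against 10.3 and 10.3 on the control arrays (difference 1.23), and Dcn and Pdgfrb differed by 0.67 and 0.44. Thy1 read 4.68 and 4.75 on the Myc-depleted arrays, against 6.02 and 5.92 on the control arrays (difference -1.26). None of the 8 tested was called by limma (smallest adjusted p = 0.26), and their log2 values over all 9 genes summed to 94.97 and 92.98 on the Myc-depleted arrays, against 93.14 and 94.28 on the control arrays. The part of these markers in the results was not tested. The lists of endothelial and blood cell markers had 4 of 5 and 3 of 5 genes under the threshold, among them Pecam1 and Ptprc, which encode the sorted-out antigens CD31 and CD45.

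Most of the repair genes read lower in Myc-depleted than in control BASCs, by small amounts, and none passed the test. All differences are Myc-depleted minus control on the log2 scale. Of the 32 genes tested, 29 had a negative difference, against 46.0% of all 12589 genes tested. The median was -0.37 (quartiles -0.54 and -0.14), beside 0.02 over all genes. Both Myc-depleted arrays lay under both control arrays for 20 of the 32, where the share over all genes was 20.8%, and over both for 0 of the 32, where it was 26.6%. An unadjusted limma p under 0.05 was reached by 10 genes that were lower and 0 that were higher, beside 5.23% and 6.96% of all genes. None of the 32 was more than 2-fold different with such a p, a state reached by 1.61% of all genes. After Benjamini-Hochberg adjustment over all 27022 probe sets, limma called 0 of the 32 (smallest adjusted p = 0.33) and 0% of all genes, and the ANOVA named in the methods called 0 as well. With 2 arrays a group, the smallest p an exact two-sided permutation test could give for a single gene is 0.333. Under other settings the number of repair genes with a lower level and such a p changed, and so did the genes. Without control 1 it was 1 (1.45% of all genes) and without control 2 it was 5 (2.01%), of which 3 are among the 10. With the methods' ANOVA it was 5 (4.84%), of which 4 are among the 10, and with the replicate number as a block it was 2 (2.04%). With the crossed pairing as a block it was 16 (9.70%), and with the spike-in difference as a covariate 19 (13.3%). That last fit, with 1 residual degree of freedom, called 10 repair genes as lower after adjustment, beside 5.39% of all genes.

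**Figure D1:**
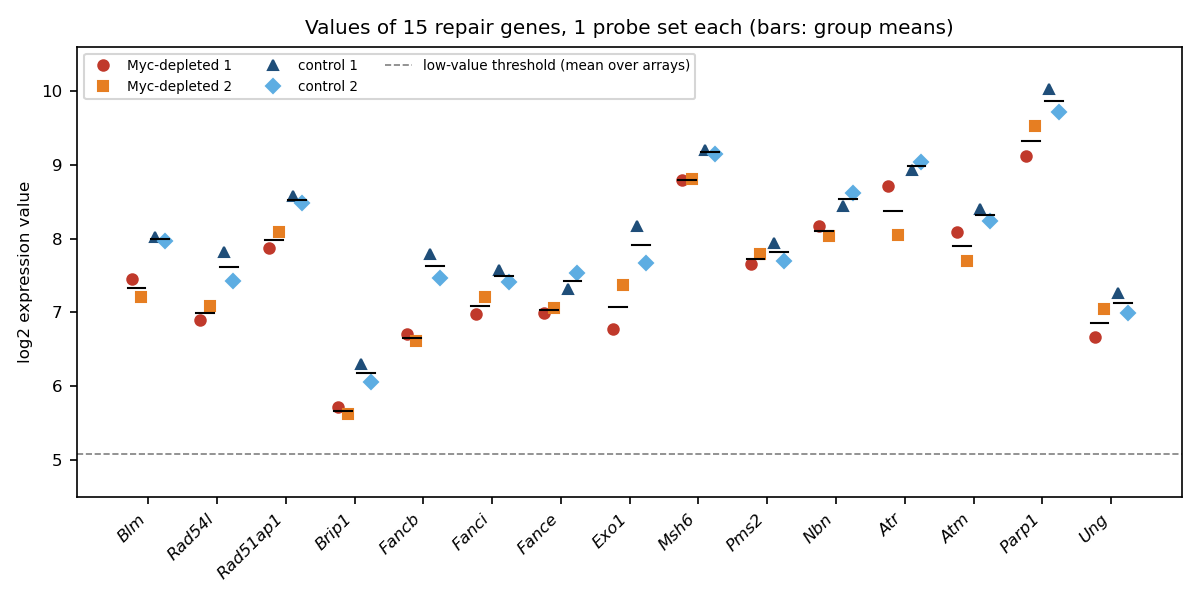
Log2 expression values (vertical axis) of 15 repair genes on the 2 Myc-depleted arrays (red and orange) and the 2 control arrays (dark and light blue), 1 probe set a gene, with group means as black bars and the low-value threshold as a dashed line. The Myc-depleted arrays lie under the control arrays without overlap for 13 of the 15 genes, and Pms2 and Ung overlap. These 15 were chosen from the same values, by unadjusted p or size of difference, which favours a lack of overlap. Over all 32 repair genes tested it was 20, and over all genes 20.8%.

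The median was negative in each of the 4 pairings that set a Myc-depleted against a control array. It was -0.40 over the 32 genes for Myc-depleted 1 against control 1, with 29 genes lower, and -0.29 for Myc-depleted 1 against control 2, with 30 lower. It was -0.35 for Myc-depleted 2 against control 1, with 28 lower, and -0.19 for Myc-depleted 2 against control 2, with 23 lower. Over all genes these medians lay between 0.02 and 0.03. The arrays within a group differed as well. Control 1 read above control 2 for 24 of the 32 genes, and Myc-depleted 2 above Myc-depleted 1 for 21. Control 1 and Myc-depleted 2 were the arrays with a low spike-in difference. Within each pair of arrays of like spike-in difference, a pairing chosen with the values known, 27 of the 32 genes were lower in both, against 31.7% of all genes.

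**Figure D2:**
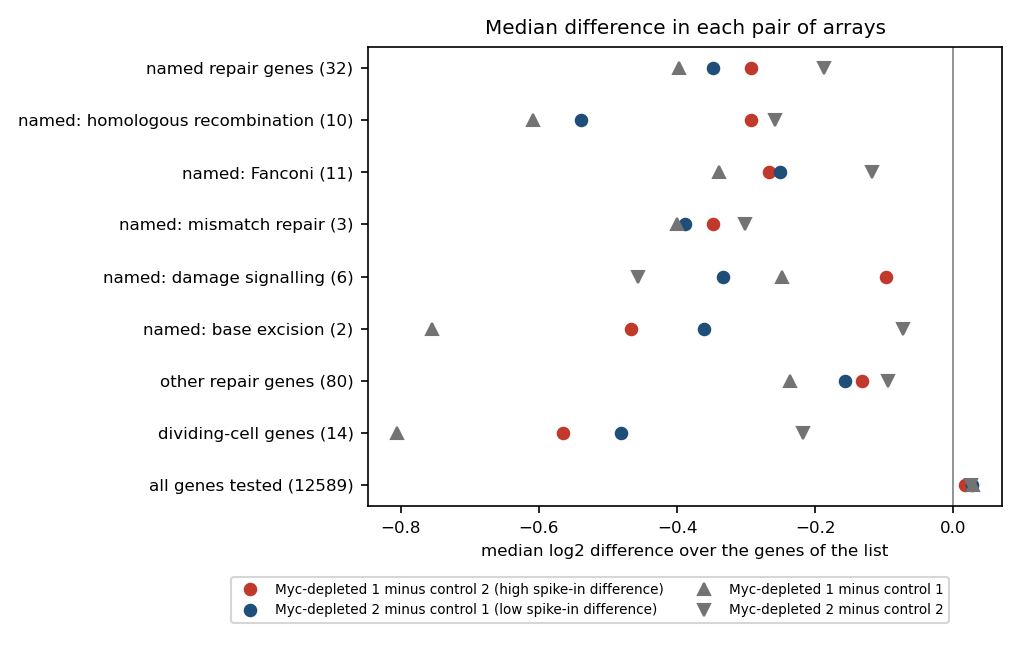
Median log2 difference (horizontal axis) over the genes of each list in the 4 pairings of single arrays, 1 from each group; red and dark blue points are the pairings of arrays with a like spike-in difference. The 32 repair genes lie between -0.40 and -0.19 in all 4, while all genes tested lie between 0.02 and 0.03.

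Genes of dividing cells also read lower in Myc-depleted BASCs, and none passed the test. Of 15 such genes, Mki67, Top2a and Mcm2 among them, 14 had a probe set of their own, all 14 above the low-value threshold, and all 14 had a negative difference, with a median of -0.56. An unadjusted p under 0.05 was reached by 5, beside 5.23% of all genes that were lower with such a p. After adjustment limma called 0 (smallest adjusted p = 0.34). The groups overlapped for Cdk1, Plk1 and Rrm2. For the other 11 both Myc-depleted arrays lay under both control arrays, where the share over all genes was 20.8%. The log2 values of all 14 genes summed to 140.0 and 143.5 on the Myc-depleted arrays, against 151.1 and 147.3 on the control arrays, so the sums did not overlap. Their part in the lower values of the repair genes was not tested. In RNA from whole cultures, fewer cells in a phase of the cycle and less RNA per cell cannot be told apart.

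**Figure D3:**
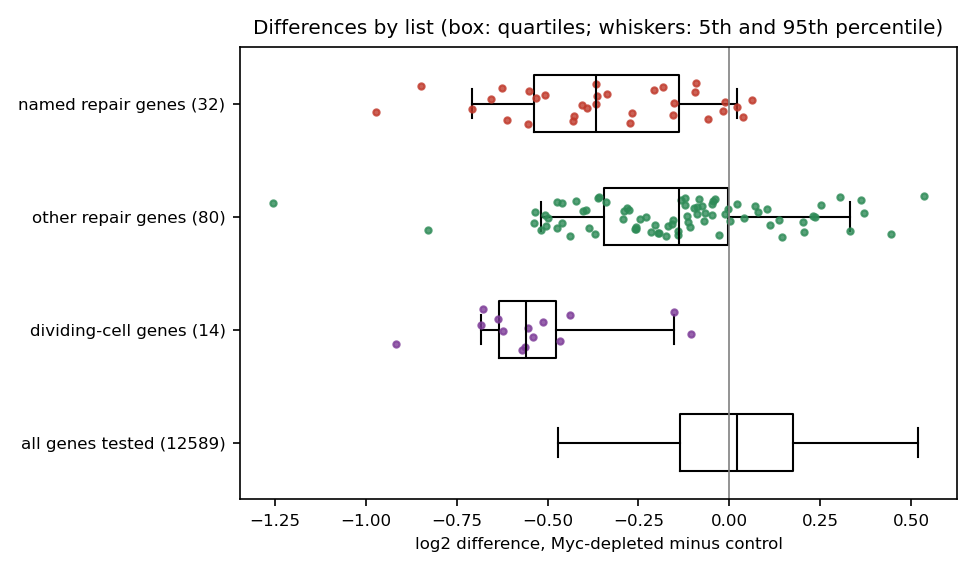
Log2 difference, Myc-depleted minus control (horizontal axis), of the 32 repair genes chosen by name, 80 other repair genes, 14 genes of dividing cells and all 12589 genes tested; boxes show quartiles, whiskers the 5th and 95th percentiles, points single genes. The medians lie at -0.37, -0.14, -0.56 and 0.02.

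Homologous recombination had 13 genes, of which 10 were tested, and all 10 had a negative difference with a median of -0.44. The 4 with an unadjusted p under 0.05 were Blm, Rad54l, Rad51ap1 and Brip1. Over all genes, 5.23% were lower with such a p. Blm (probe set 1448953_at), the helicase lost in Bloom syndrome, which dissolves recombination intermediates, read 7.46 and 7.21 on the Myc-depleted arrays, against 8.02 and 7.96 on the control arrays. Its difference was -0.66 (SE 0.14, 95% interval -1.04 to -0.27, limma adjusted p = 0.38), or 63.5% of the control level. The groups were clearly apart, and each was tight beside the gap between them. Rad54l (1450862_at), a motor protein that promotes strand exchange, read 6.90 and 7.09 on the Myc-depleted arrays, against 7.82 and 7.42 on the control arrays (difference -0.63, SE 0.19). Control 1 stood highest and the groups did not overlap. Rad51ap1 (1417938_at), which stimulates joint molecule formation, read 7.87 and 8.09 against 8.58 and 8.48 (Myc-depleted and control arrays, difference -0.55, SE 0.14). Its 4 probe sets were all tested and lay between -0.59 and -0.49. Brip1 (1458427_at), the helicase that binds the Brca1 carboxyl end, read 5.72 and 5.62 on the Myc-depleted arrays and 6.30 and 6.05 on the control arrays, with a difference of -0.51 (SE 0.14).

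The genes at the head of the recombination pathway had wider spreads. Brca1, the scaffold that opens the pathway, was picked out after its values were seen. It read 7.47 and 7.57 on the Myc-depleted arrays, against 8.36 and 7.74 on the control arrays (difference -0.53, SE 0.25, limma adjusted p = 0.58). Control 1 lay far above control 2, and the interval ran from -1.22 to 0.16. Of its other probe sets, 1451417_at read 4.80 and 6.01 on the Myc-depleted arrays, against 6.56 and 5.72 on the control arrays, and there the groups overlapped. Brca2, which acts after Brca1 in the pathway, read 8.56 and 7.97 on the Myc-depleted arrays, against 8.56 and 8.70 on the control arrays, so that Myc-depleted 2 alone stood apart. Eme1, a subunit of a structure-specific nuclease, differed by -0.34, Rad51c, a recombination gene also mutated in Fanconi anaemia, by -0.21, Rmi1, a partner of Blm, by -0.18 and Palb2, which links Brca1 to Brca2, by -0.10. The values of Eme1 and Rmi1 did not overlap between the groups, those of Rad51c and Palb2 did. For Rmi1 this depended on the probe set. Its probe sets 1428625_a_at, 1456696_x_at and 1439248_at overlapped, with differences of -0.07, -0.02 and 0.03. Its probe set 1438573_at differed by -0.08 without overlap. Under the low-value threshold, Rad54b read 4.62 and 4.78 on the Myc-depleted arrays and 5.37 and 4.99 on the control arrays, and Bard1, the ring-finger partner of Brca1, read 4.01 and 4.08 against 4.46 and 4.14 (Myc-depleted and control arrays). Neither was tested.

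Fanconi genes split between some that were lower and some that were close to 0. Of 11 genes, all tested, 9 were negative with a median of -0.27. For 6 of the 11 both Myc-depleted arrays lay under both control arrays, where the share over all genes was 20.8%. Fancb (1437780_at), a core complex subunit, had the lowest difference of the 32 repair genes. It read 6.71 and 6.61 on the Myc-depleted arrays, against 7.79 and 7.47 on the control arrays. The difference was -0.97 (SE 0.16, 95% interval -1.42 to -0.53, limma adjusted p = 0.33), or 51.0% of the control level, and the gap exceeded the spread within either group. Its second probe set differed by -0.47. Fancd2 (1439091_at), the protein that the core complex marks with ubiquitin, was picked out after its values were seen. It read 6.32 and 6.86 on the Myc-depleted arrays, against 7.61 and 6.98 on the control arrays. The groups did not overlap, but Myc-depleted 2 differed from control 2 by only -0.12, and the interval of the difference of -0.71 ran from -1.58 to 0.16. The other tested probe set of Fancd2, 1438339_at, read 6.02 and 6.55 on the Myc-depleted arrays, against 6.76 and 6.43 on the control arrays. There the groups overlapped (difference -0.31). Fanci, the partner of Fancd2 in the clamp, read 6.98 and 7.21 on the Myc-depleted arrays, against 7.58 and 7.42 on the control arrays (difference -0.40, SE 0.15). Fance, the core subunit that contacts Fancd2, read 6.996 and 7.06 on the Myc-depleted arrays, against 7.31 and 7.53 on the control arrays (difference -0.39, SE 0.13). For both genes each Myc-depleted array lay under each control array.

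The remaining Fanconi genes were nearer 0. Fancl, the ubiquitin ligase of the core complex, differed by -0.37 and Fanca by -0.27, both with groups that did not overlap. Fancm, the DNA-remodelling subunit, differed by -0.15 with overlapping groups. Fancc, Fancg and Slx4, a scaffold of nucleases, differed by -0.02, 0.02 and -0.01, with 95% intervals of -0.39 to 0.35, -0.39 to 0.43 and -0.32 to 0.30. These intervals leave room for a difference as large as that of Fancl on the negative side for Fancc and Fancg. Wdr48, the cofactor of the protease that removes ubiquitin from Fancd2, read 8.55 and 8.75 on the Myc-depleted arrays, against 8.57 and 8.61 on the control arrays (difference 0.06), and a second probe set differed by -0.20. That protease, Usp1, is not among the 35 genes. It read 10.7 and 10.8 on the Myc-depleted arrays, against 11.4 and 11.2 on the control arrays (difference -0.53, unadjusted p = 0.019, limma adjusted p = 0.41). The difference between Usp1 and Wdr48 was not tested.

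**Figure D4:**
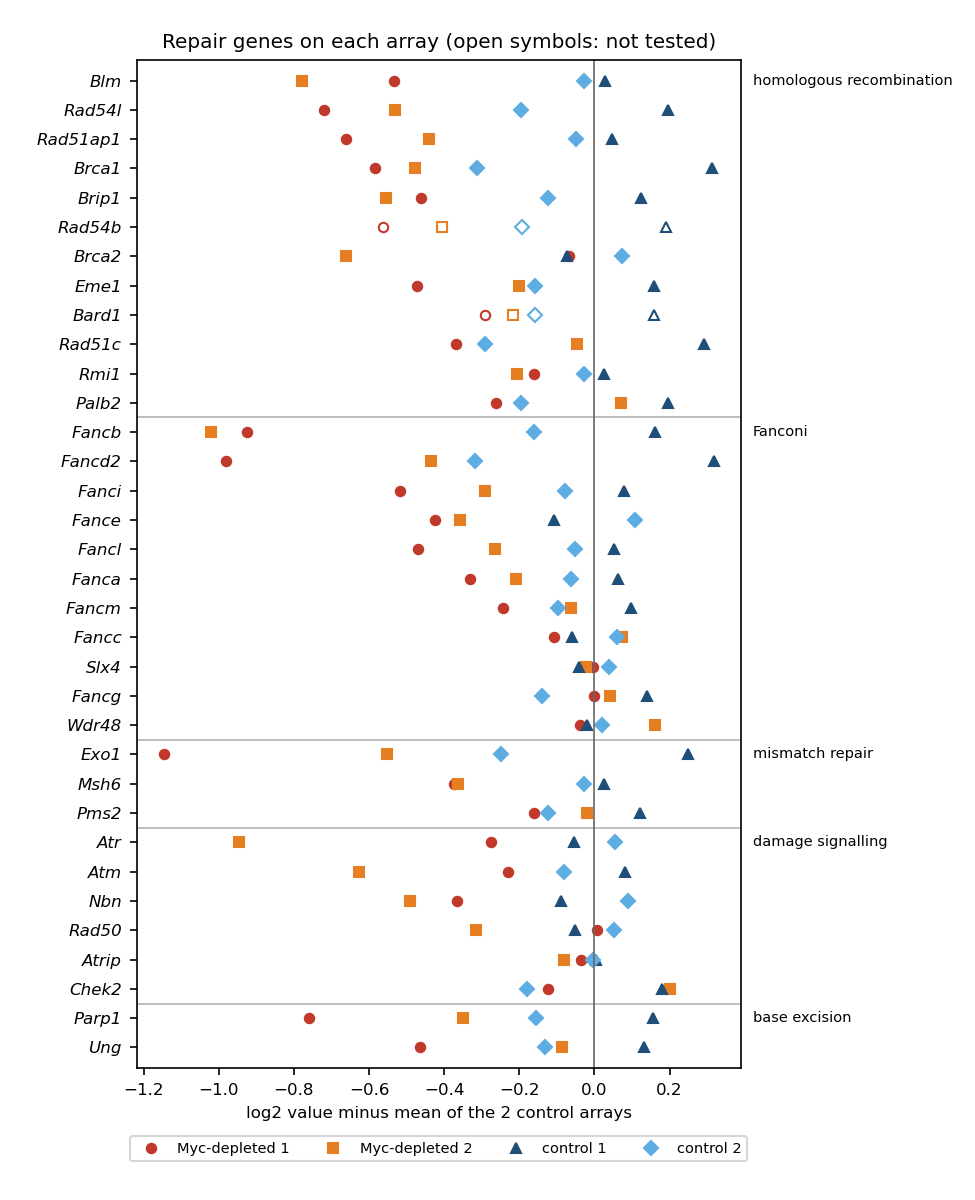
Log2 value of each repair gene on each array minus the mean of the 2 control arrays (horizontal axis), by role; circles and squares are the Myc-depleted arrays, triangles and diamonds the control arrays, open symbols genes that were not tested. Fancb and Exo1 extend furthest to the left, while the group means of Slx4, Fancc, Fancg, Wdr48, Chek2 and Atrip lie close to each other, with differences between -0.06 and 0.06.

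In mismatch repair, all 3 genes had a negative difference. Exo1 (1418026_at), the exonuclease that digests the mismatched strand and also resects breaks, read 6.77 and 7.37 on the Myc-depleted arrays, against 8.17 and 7.67 on the control arrays. The difference was -0.85 (SE 0.29, 95% interval -1.66 to -0.03, limma adjusted p = 0.49), with the gap between Myc-depleted 2 and control 2 smaller than the spread within either group. Without Myc-depleted 1 it was -0.55. A second probe set read 5.26 and 6.22 on the Myc-depleted arrays, against 7.20 and 6.24 on the control arrays, so that Myc-depleted 2 and control 2 were level there. Msh6 (1416915_at), a subunit of the sensor that finds single-base mismatches, read 8.80 and 8.81 on the Myc-depleted arrays, against 9.20 and 9.14 on the control arrays. Both groups were tight, and the difference was -0.37 (SE 0.11, limma adjusted p = 0.44), or 77.5% of the control level. Pms2, the endonuclease subunit that acts after recognition, read 7.65 and 7.80 against 7.94 and 7.69 (Myc-depleted and control arrays), which overlapped (difference -0.09), and the difference turned to 0.032 without control 1. Of its other tested probe sets, 1436273_at differed by -0.07 and 1432421_at by -0.46. The latter read 5.39 and 5.18 on the Myc-depleted arrays, against 5.60 and 5.88 on the control arrays, without overlap.

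Of 6 damage signalling genes, 5 were negative with a median of -0.29, and for those 5 the lowest of the 4 arrays was Myc-depleted 2. Nbn (1448746_at), which joins Mre11 and Rad50 in the complex that binds broken ends, read 8.17 and 8.04 on the Myc-depleted arrays, against 8.44 and 8.62 on the control arrays (difference -0.43, SE 0.13, limma adjusted p = 0.45). Atr, the kinase of stalled forks, read 8.72 and 8.04 on the Myc-depleted arrays, against 8.93 and 9.05 on the control arrays. Its difference of -0.61 (SE 0.26) was -0.27 without Myc-depleted 2 and -0.95 without Myc-depleted 1. Atm, the kinase of double-strand breaks, read 8.09 and 7.70 on the Myc-depleted arrays, against 8.41 and 8.24 on the control arrays (difference -0.43, SE 0.19). Myc-depleted 2 was again the lower, and the difference was -0.23 without it. That order held for this probe set only. The other tested probe set of Atm, 1421205_at, read 7.03 and 7.15 on the Myc-depleted arrays, against 8.15 and 7.49 on the control arrays. Its difference was -0.73 without overlap, and there Myc-depleted 1 was the lower. Over the 32 genes, Myc-depleted 1 held the lowest value of the 4 arrays for 19 and Myc-depleted 2 for 10. Rad50 differed by -0.15, Atrip, the partner of Atr, by -0.06 and Chek2, the kinase downstream of Atm, by 0.04 with an interval of -0.52 to 0.60.

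Of the 2 base excision genes, Parp1 (1422502_at), the sensor of nicked DNA, read 9.12 and 9.53 on the Myc-depleted arrays, against 10.03 and 9.72 on the control arrays. The groups did not overlap, and the difference was -0.55 (SE 0.21, 95% interval -1.14 to 0.03, limma adjusted p = 0.52). Of its other tested probe sets, 2 were negative and 1443573_at differed by 0.14. Without Myc-depleted 1 the difference of Parp1 was -0.35, and with the mean of its probe sets it was -0.29. Ung, which cuts uracil out of DNA, read 6.67 and 7.04 on the Myc-depleted arrays, against 7.26 and 6.997 on the control arrays (difference -0.27), and the groups overlapped. The difference of Ung was -0.086 without Myc-depleted 1, -0.14 without control 1 and -0.46 without Myc-depleted 2.

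Of the 61 tested probe sets, 29 did not represent their gene. Of these 29, 24 were negative, 12 had both Myc-depleted arrays under both control arrays and 2 had them over, where the 32 that represent their gene had 20 under and 0 over. Over all genes, each by the probe set that represents it, 46.0% were negative, 20.8% lay under and 26.6% over. Among 17 genes with several tested probe sets, 13 had all of them on 1 side of 0. The other 4 were Fancc, Parp1, Rmi1 and Wdr48, whose probe sets of opposite sign differed by 0.24, 0.14, 0.03 and -0.20. Beside Fancb and Parp1, no gene had a tested probe set more than 0.5 from the one that represents it. The 14 probe sets under the filter ranged from -0.60 to 0.13, and 10 were negative.

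**Figure D5:**
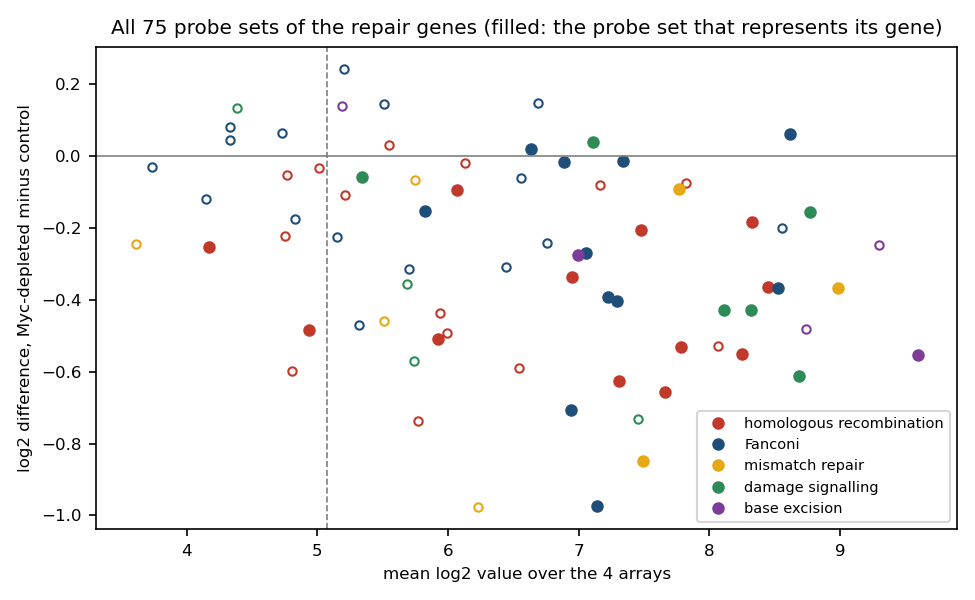
Log2 difference, Myc-depleted minus control (vertical axis), against the mean log2 value over the 4 arrays (horizontal axis) for the 75 probe sets of the repair genes, by role; filled points represent their gene and the dashed line is the low-value threshold. The lowest values, Fancb at -0.97 and a second Exo1 probe set at -0.98, lie above the threshold.

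Promoters were read for letters bound by factors of the cell cycle and of Myc, because most of the repair genes read lower. A shared cause was not tested. RefSeq promoters of mouse assembly GRCm38.p6, from 250 bases before to 50 after the start, were found for 29 of the 35 genes, 32 promoters in all, of which the 2 of Rad54l are 1 base apart. Searched on both strands were the E-box CACGTG of Myc and Max, the E2F letters TTTCCCGC, TTTGGCGC, TTTCGCGC and TTTGCCGC, the CHR element TTTGAA of late cell cycle genes and the CCAAT box, and 0 matches of different motifs overlapped. E2F letters stood in 8 of the 32 promoters (25%), against 2.26% of all 32851 promoters, and the CCAAT box in 20 (62.5%), against 37.4%. The E-box stood in 4 (12.5%), against 7.15%, and the CHR letters in 2 (6.25%), against 17.9%. The E2F matches are shown because they had the largest ratio to the share over all promoters, with the E2F letters in capitals and each sequence on its gene's strand.
Brca2, chr5:150522436-150522477 (+): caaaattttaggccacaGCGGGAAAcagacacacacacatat
Msh6, chr17:87975048-87975089 (+): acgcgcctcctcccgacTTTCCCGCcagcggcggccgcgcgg
Bard1, chr1:71103157-71103198 (-): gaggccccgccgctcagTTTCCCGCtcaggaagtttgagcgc
Fancg, chr4:43010329-43010370 (-): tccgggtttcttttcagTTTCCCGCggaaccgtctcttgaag
Chek2, chr5:110839814-110839855 (+): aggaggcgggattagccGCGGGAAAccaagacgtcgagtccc
Rmi1, chr13:58402606-58402646 (+): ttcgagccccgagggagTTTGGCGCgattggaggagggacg
Rad51c, first promoter, chr11:87404935-87404976 (-): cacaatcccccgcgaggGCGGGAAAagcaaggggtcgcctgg
Rad51c, second promoter, chr11:87404471-87404512 (-): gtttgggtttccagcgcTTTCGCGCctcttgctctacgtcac

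No promoter was in the table for Exo1, Fancd2, Nbn, Rad50, Rad54b and Xrcc2, which include genes with some of the lowest differences, so the letters there were not read. The 6 tested genes that held them, Brca2, Msh6, Rmi1, Rad51c, Fancg and Chek2, had a median difference of -0.20, and the 22 tested genes with a promoter and without them had a median of -0.38. Of the 4 genes with an E-box, Parp1 differed by -0.55, Eme1 by -0.34, Rmi1 by -0.18 and Slx4 by -0.01. Those E-boxes are shown in capitals, since c-Myc was the factor depleted.
Parp1, chr1:180568825-180568864 (+): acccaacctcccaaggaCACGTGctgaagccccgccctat
Eme1, chr11:94653958-94653993 (-): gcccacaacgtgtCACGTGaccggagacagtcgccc
Rmi1, chr13:58402555-58402594 (+): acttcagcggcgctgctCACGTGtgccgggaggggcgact
Slx4, chr16:4001864-4001903 (-): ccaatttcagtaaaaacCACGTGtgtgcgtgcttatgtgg
Fancb, with the lowest difference, and Blm held neither E2F nor E-box letters in this window. The Fancb promoter is shown whole for that reason, with its CCAAT box in capitals.
Fancb, chrX:164980342-164980641 (+): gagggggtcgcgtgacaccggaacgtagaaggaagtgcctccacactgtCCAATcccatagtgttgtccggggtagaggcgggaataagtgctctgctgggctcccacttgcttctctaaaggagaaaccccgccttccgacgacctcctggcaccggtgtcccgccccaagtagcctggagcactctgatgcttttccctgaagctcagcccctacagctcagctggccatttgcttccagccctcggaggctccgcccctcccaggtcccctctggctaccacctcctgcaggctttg
A match is a description of these letters and says nothing of binding.

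Repair genes outside the 35 were read from a list of 91, of which 82 had a probe set of their own and 80 were tested. Of these 60 were negative, against 46.0% of all genes, with a median of -0.14. Both Myc-depleted arrays lay under both control arrays for 35 of the 80, where the share over all genes was 20.8%. They lay over both for 13, where it was 26.6%. An unadjusted p under 0.05 was reached by 11 that were lower and 1 that was higher, beside 5.23% and 6.96% of all genes. After adjustment 0 were called. The 3 with the smallest p were the mismatch repair gene Mlh3, the checkpoint kinase Chek1 and the ubiquitin ligase Rad18. Mlh3 read 5.19 and 5.24 on the Myc-depleted arrays, against 6.51 and 6.43 on the control arrays, a difference of -1.26 (limma adjusted p = 0.26). Chek1 read 8.19 and 7.95 on the Myc-depleted arrays, against 8.96 and 8.83 on the control arrays (difference -0.83), and Rad18 read 8.08 and 8.10 against 8.64 and 8.55 (Myc-depleted and control arrays, difference -0.50). For all 3 the groups were well apart. By role, the 5 other mismatch repair genes tested were all negative with a median of -0.46, and 14 of 16 in damage signalling were negative with a median of -0.26. Medians were -0.08 over 16 other genes of homologous recombination and -0.07 over 13 other Fanconi genes.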

How the data were processed

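Values of 4 Affymetrix mouse arrays were used as deposited, on a log2 scale. The authors made these log2 values with Partek software, version 6.4. Robust Multichip Average is named in the methods and GCRMA in the submitters' processing notes. Which of them was applied was not settled here, and low values depend on it most. Of 45101 probe sets, 64 controls were dropped, and those with a mean under the 40th percentile (log2 5.08) were not tested, which left 27022. Each gene was represented by its tested probe set with the highest mean. Groups were compared by limma (version 3.58.1, R 4.3.3; 2 residual and 2.02 prior degrees of freedom), tested on simulated data, with Benjamini-Hochberg adjustment over all probe sets and calls at 0.05. Precision is limited by there being 4 arrays. The genes, lists and tests were chosen with earlier results of these data known. By rule, array values are given for genes with an unadjusted p under 0.05 or a difference over 1, and then for those with the largest differences until 3 genes of each role are described, and for the 3 other repair genes with the smallest p. Brca1, Brca2, Fancd2, Wdr48, Bard1, Rad54b, Usp1, Xpc and Epcam were added after their values were seen. So were further probe sets of Exo1, Brca1, Atm, Pms2, Rmi1, Fancd2, Wdr48 and Usp1. Gene symbols came from the platform annotation, and all 75 probe sets of the repair genes matched RefSeq by Entrez identifier. Coordinates are those of the RefSeq promoter table. Alternatives changed the filter, the scaling, the lower limit of values, the moderation of the variance, the test, the choice of probe set, the blocks and a spike-in covariate, or left out 1 array.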

Additional observations from a re-analysis of the deposited data

How the results depend on the processing

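The median difference of the repair genes moved by less than the spread between arrays under all 16 alternatives, between -0.40 and -0.27. With all 4 arrays kept, the number with groups that did not overlap lay between 17 and 22, beside 20. With 1 array left out, a lack of overlap is easier to reach, so those counts cannot be set beside the 20. The number with an unadjusted p under 0.05 and a lower level was 10. It was 5 with the methods' ANOVA, of which 4 are among the 10, and 2 with the replicate block. It ran from 1 (without control 1) to 9 when 1 array was left out, where the lone array is taken to vary like the other group. Over 2-fold with such a p were 0 genes, and 0 to 3 when 1 array was left out: Exo1, Fancb and Fancd2 without control 2, Fancb without Myc-depleted 1 and Exo1 without Myc-depleted 2. Over the whole array 0 probe sets were called, against 22 genes with the mean of all probe sets of a gene, none of them among the repair genes. With the spike-in covariate 3224 probe sets and 10 repair genes were called, and 19 repair genes had a lower level with an unadjusted p under 0.05; the cause was not tested. Same-numbered arrays deviated in opposite directions (r = -0.77 over 27022 probe sets). The spike-in difference was high on Myc-depleted 1 and control 2, and its part in r was not tested. The value of r therefore cannot settle whether same-numbered arrays share a source. The crossed pairing, added after the data were seen, called 21 probe sets and 0 repair genes, with 16 at an unadjusted p under 0.05. Of 239 values for 15 singly described genes, 1 changed sign, that of Pms2 (0.032 without control 1, and between -0.21 and 0.032 over the fits that left out 1 array), and 9 became called, all with the covariate.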

Other observations

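Of 7 tested genes of end joining, which rejoins broken ends without a template, 5 were negative with a median of -0.11, and the lowest was Xrcc5, a subunit of the Ku end-binding protein, at -0.29. Of 10 tested genes of nucleotide excision, which removes bulky lesions, 7 were negative with a median of -0.06. Xpc, the damage sensor of that branch, read 6.62 and 6.70 on the Myc-depleted arrays, against 6.33 and 5.92 on the control arrays, a difference of 0.54 (limma adjusted p = 0.48). It was the highest of the 80 repair genes tested outside the 35. In nucleotide excision, 3 genes had both Myc-depleted arrays over both control arrays (Xpc, Xpa at 0.30 and Ddb2 at 0.36), and 3 had them under (Rad23b at -0.36, Ercc2 at -0.13 and Ddb1 at -0.04). The shares over all genes were 26.6% over and 20.8% under, and 3 of 10 each way lies near them. None of these genes was called, and they were picked out after their values were seen. Of 13 other base excision genes, 9 were negative with a median of -0.14, and the DNA glycosylase Neil1 was highest at 0.45.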
